A study of Mus musculus with 16 samples.

Results

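The interferon-inducible IRG and GBP GTPases were followed here in mouse liver as 10 genes, 6 of the IRG family (Tgtp1, Tgtp2, Iigp1, Irgm1, Irgm2 and Igtp) and 4 of the GBP family (Gbp2, Gbp3, Gbp7 and Gbp10). They were found by matching gene identifiers without their version to symbols, and all 10 were present among 78317 listed genes. The 10 were chosen by values of these same data, the rise in females given the high fat diet, so for them the calls of that comparison are printed as a description and nothing is read from them. All 10 passed the filter on low counts that left 14781 genes for testing.

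The tissue was whole liver of wild type C57BL/6J mice, an inbred laboratory strain, in 4 groups of 4 libraries: females and males, each on a normal chow or a high fat diet. The normal chow of LabDiet took 4.5% of its calories from fat and the high fat diet of Research Diets took 60%. The mice were 6 weeks old on arrival and stayed on the diets for 10 weeks. The chows came from different makers, so the groups can differ in more than fat. The labels give all libraries 1 batch number and do not say outright that each library was a separate mouse, so the p-values below measure the spread between these libraries.

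Both families are GTP-binding proteins that cells make in quantity after interferon. Interferon gamma, released mainly by T and NK cells, acts through the kinases JAK1 and JAK2 on genes with a DNA motif called GAS. IRF1, itself induced this way, binds a second motif, the ISRE. Type I interferons act on the ISRE through a complex that holds IRF9. Within the IRG family, Iigp1, Tgtp1 and Tgtp2 encode effectors that coat and break the vacuoles of intracellular parasites, while Irgm1, Irgm2 and Igtp (also called Irgm3) encode regulators that sit on the cell's own membranes and hold the effectors inactive there. GBP proteins gather on the same vacuoles and on bacteria and help inflammasomes to assemble. Hepatocytes and immune cells can both make them after interferon.

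Library totals ran from 22228115 to 41420589 counts. The 10 genes together took between 0.0579% of the counts of a library (male normal diet replicate 1) and 0.438% (female high fat replicate 4). Male high fat replicates 2 and 3 were closer to each other than any other pair of one group, with a chi-square per gene of 4.00 against 20.7 for the next closest pair, but still differed by more than counting noise and were kept as 2 libraries. From replicates 1 and 4 of their group both lay far apart, with values of 154.7 to 306.5. Pairs of the other groups reached at most 95.76. Male high fat replicates 1 and 4 stood at 54.45 from each other, so this group was uneven too. Female high fat replicates 1 and 4 stood apart from the other 14 libraries in the genes described here, and calls of named genes that end without them are given beside the result. These 2 libraries were picked by those values, so leaving them out lowers the female high fat levels of the 10 genes by construction. Markers of hepatocytes were abundant in all 16 libraries, with summed levels of 72580 to 136800 CPM (counts scaled to library size with edgeR's TMM factors). In bulk liver, fewer cells of a type and less RNA per cell cannot be told apart.

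The promoters of the 10 genes are shown first because 8 of them share letters that the choice of genes did not use. RefSeq promoter windows (build GRCm38.p6, 250 bases before the start) were matched for 8 of the 10, all but Iigp1 and Gbp10. Both strands were searched for the GAS motif TTCNNNGAA, which reads the same on either strand, and for the ISRE motif GAAANNGAAA. An ISRE match lay before the start of 8 of the 8 genes, against 2.98% of all 32851 windows. A GAS match lay before 5 of the 8 (Tgtp1, Tgtp2, Irgm2, Igtp and Gbp7), against 7.02% of all windows. Stretches around the matches follow, 5′ to 3′ along the gene, with both motifs in capitals. They come from chr11:48992299-48992349 (Tgtp1, minus strand), chr11:49064258-49064308 (Tgtp2, minus), chr11:58214887-58214937 (Irgm2, plus), chr11:58199496-58199546 (Igtp, plus), chr11:48871421-48871465 (Irgm1, minus), chr3:142620589-142620628 (Gbp2, plus), chr3:142559984-142560029 (Gbp3, plus) and chr3:142530215-142530307 (Gbp7, plus), all upstream of the annotated transcript start.
Tgtp1: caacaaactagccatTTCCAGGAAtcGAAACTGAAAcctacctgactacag
Tgtp2: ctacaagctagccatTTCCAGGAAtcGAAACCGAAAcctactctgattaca
Irgm2: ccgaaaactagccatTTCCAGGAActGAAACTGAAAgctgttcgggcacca
Igtp: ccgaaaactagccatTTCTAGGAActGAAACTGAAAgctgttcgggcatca
Irgm1: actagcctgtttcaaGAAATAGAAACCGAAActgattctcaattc
Gbp2: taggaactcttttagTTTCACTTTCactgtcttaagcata
Gbp3: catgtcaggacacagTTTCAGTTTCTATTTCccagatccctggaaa
Gbp7: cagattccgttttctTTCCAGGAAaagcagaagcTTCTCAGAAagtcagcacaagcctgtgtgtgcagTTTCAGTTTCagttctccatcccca

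In Tgtp1, Tgtp2, Irgm2 and Igtp the GAS match was followed after 2 bases by the ISRE match. Gbp7 had 2 GAS matches, the nearer of them 25 bases before an ISRE match on the other strand. Irgm1, Gbp2 and Gbp3 had ISRE matches and no GAS match in this window. In Irgm1 and in Gbp3 a pair of ISRE matches overlapped. A second annotated start of Gbp3 had neither motif before it. All matches lay within 106 bases of the start. Among the genes of the other lists used below, an ISRE match lay before 4 of 9 other IRG and GBP genes with a window, 7 of 15 type I interferon induced genes, 1 of 10 interferon gamma signalling genes, 1 of 10 interferon gamma induced genes and 0 of 5 hepatocyte marker genes. A GAS match lay before 3, 3, 4, 2 and 0 of them in the same order. A match of letters is a description and not a measured binding site.

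**Figure D1:**
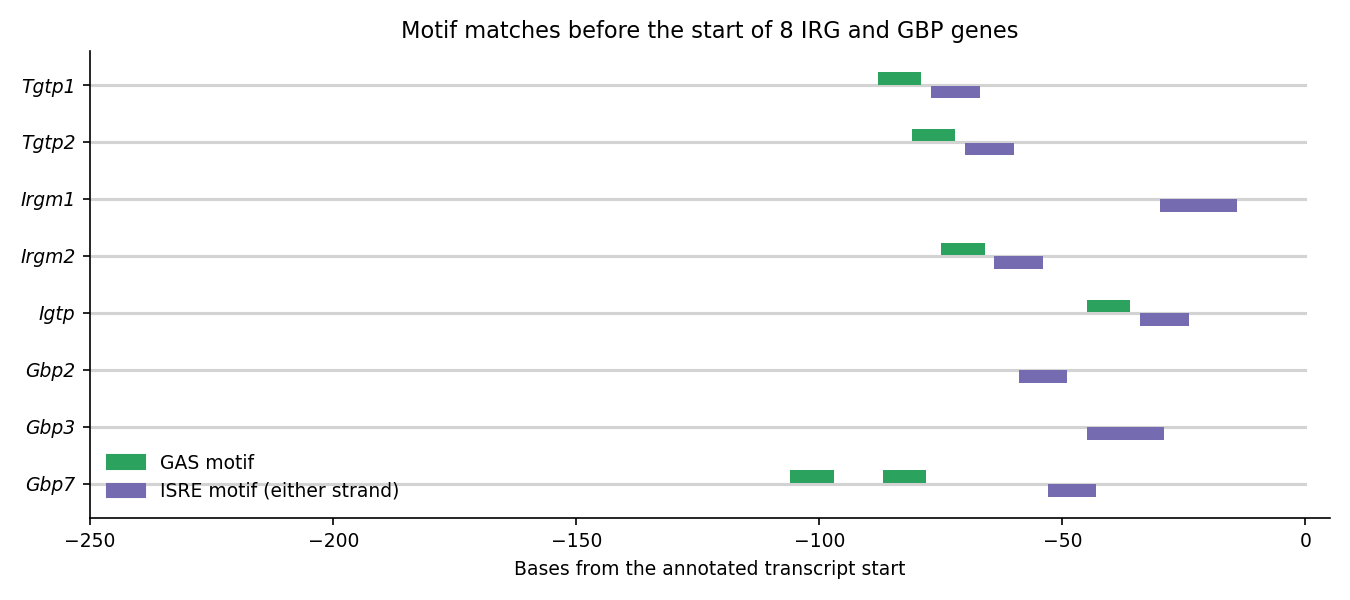
Positions of GAS (green) and ISRE (purple) motif matches in the 250 bases before the annotated start of 8 IRG and GBP genes, with distance from the start in bases on the x axis. All 8 genes have an ISRE match, and in Tgtp1, Tgtp2, Irgm2 and Igtp a GAS match stands 2 bases before it.

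Iigp1 was by far the most abundant of the 10 per transcript length in each group. In TPM, the scale that divides by gene length, its group mean was 247 ± 32.5 (SD, n = 4) in normal diet females, 557 ± 233 in high fat females, 208 ± 20.2 in normal diet males and 300.0 ± 32.2 in high fat males. In normal diet females the next levels were Irgm1 at 34.2 TPM (31.0 to 37.9), Igtp at 31.1 TPM (25.02 to 36.8) and Irgm2 at 21.1 TPM (18.4 to 24.5), and the first 2 of these overlapped. Gbp3 followed at 12.0 TPM, then Gbp7, Tgtp1, Gbp2, Gbp10 and Tgtp2 at 7.17, 6.32, 6.01, 5.21 and 3.75 TPM with overlapping ranges. In high fat females, Tgtp1 had moved from rank 7 to rank 3 with a mean of 114 TPM, though its 4 libraries ran from 9.25 to 291 TPM. Tgtp2 had the lowest mean in each group, from 2.56 TPM in normal diet males to 17.6 TPM in high fat females.

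Summed over the 10 genes, the CPM of high fat females was 2379, 1253, 1456 and 3896 in replicates 1 to 4, against 778, 962, 844 and 821 on the normal diet. In males the sums were 969, 932, 926 and 1071 CPM on the high fat diet and 626, 635, 706 and 686 CPM on the normal diet. Within each sex the diet groups did not overlap, and within each diet the sexes did not overlap either. Female high fat replicates 4 and 1 stood apart from all other libraries, while replicates 2 and 3 of that group lay at 1.47 and 1.71 times the mean of normal diet females. The ratio of group means between diets was 2.64 in females and 1.47 in males, and 1.59 in females when replicates 1 and 4 were left out.

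The IRG sum was 2.48 times higher on the high fat diet in females and 1.43 times higher in males. The GBP sum differed more, by 4.06 times in females (366, 145, 219.9 and 649 CPM on the high fat diet against 83.2, 113, 83.5 and 60.3 CPM) and by 2.20 times in males (63.5, 92.8, 89.5 and 84.4 CPM against 35.7, 36.2, 39.9 and 38.6 CPM). The IRG sum was mostly Iigp1, so it follows that gene more than the other IRG genes. Per gene, the median log2 fold change with diet in females was 1.93 for the IRG and 1.79 for the GBP genes. In males these medians were 0.64 and 1.10. GBP transcripts made up 8.11% ± 1.80 (SD, n = 4) of the TPM of the 10 genes in normal diet females and 11.9% ± 1.85 on the high fat diet. In males the GBP share was 4.36% ± 0.150 on the normal diet and 6.71% ± 1.11 on the high fat diet. The mean share of Iigp1 was lower on the high fat diet, at 50.3% ± 10.8 against 66.0% ± 4.80 in females and 66.6% ± 2.06 against 71.8% ± 1.32 in males. Its share in high fat females was 40.9%, 62.7%, 55.8% and 41.6% in replicates 1 to 4, against 61.5% to 72.6% on the normal diet. Replicate 2 thus lay inside the normal diet range, as did its GBP share of 9.37%, where that range was 5.60% to 9.78%.

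**Figure D2:**
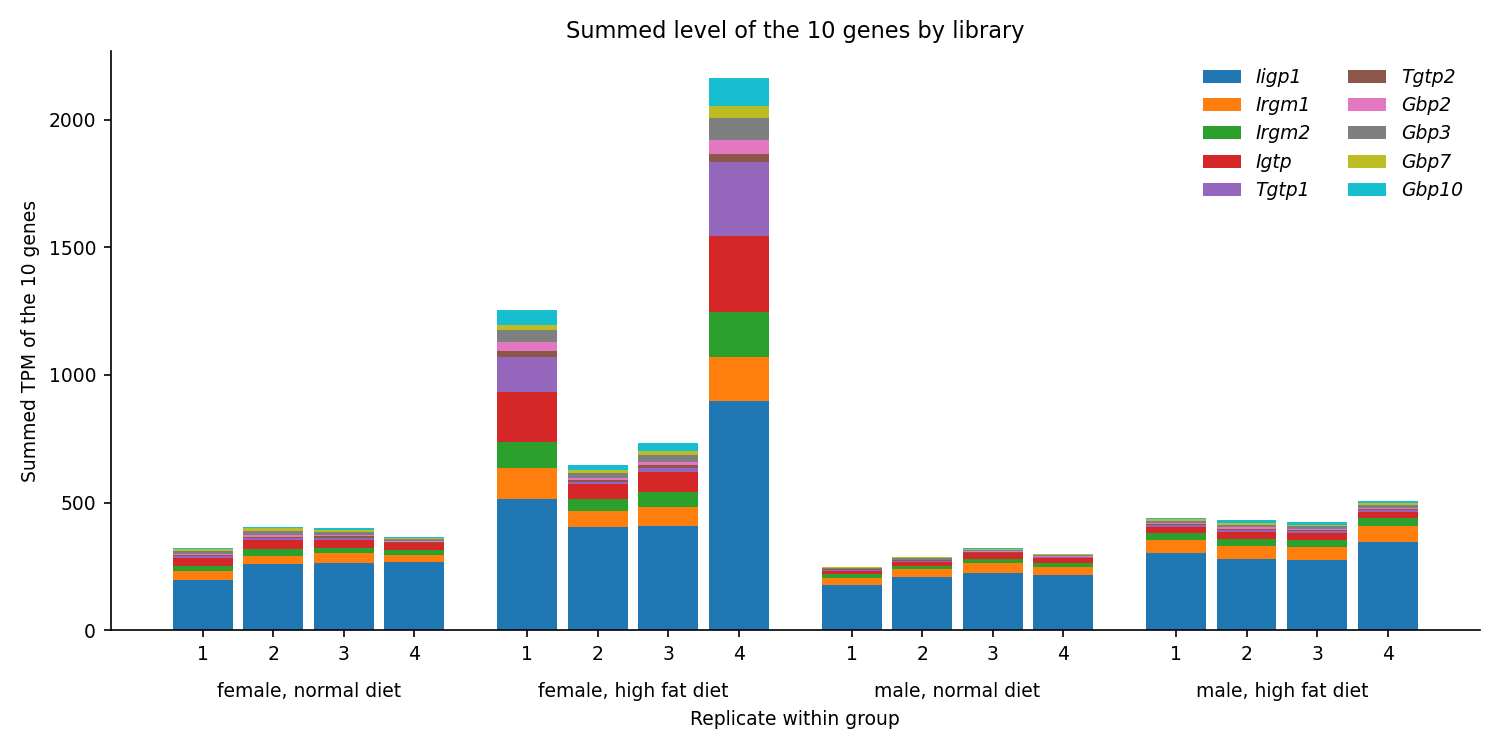
Summed TPM of the 10 genes in each of 16 libraries (y axis, from 0), split by gene, with the replicates of each group side by side. Female high fat replicates 4 and 1 reach 2161 and 1253 TPM, and no other library passes 733 TPM.

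Among the effectors, Tgtp1 (ENSMUSG00000078922.10) spanned the widest range of the 10 genes. It read 263, 17.5, 35.1 and 531 CPM in high fat females and 17.3, 16.7, 16.3 and 6.99 CPM on the normal diet. Female high fat replicate 4 was 30.4 times above replicate 2 of the same group, and replicate 2 lay just above the highest normal diet library. In males Tgtp1 read 19.7, 18.3, 19.1 and 18.5 CPM on the high fat diet and 7.32, 10.5, 7.74 and 7.15 CPM on the normal diet, with no overlap. Its log2 fold change with diet was 3.89 ± 0.85 (SE) in females and 1.21 ± 0.80 in males (edgeR adjusted p = 0.359 in males). Without female high fat replicates 1 and 4, the female value was 0.88 ± 0.31.

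Tgtp2 (ENSMUSG00000078921.4), a near copy of Tgtp1, read 44.0, 12.5, 18.3 and 57.5 CPM in high fat females and 8.93, 11.6, 8.71 and 4.64 CPM on the normal diet. Males showed 6.24, 8.46, 7.72 and 7.51 CPM on the high fat diet and 5.44, 5.30, 7.26 and 4.98 CPM on the normal diet. Tgtp2 was the one gene of the 10 whose male groups overlapped. In GENCODE M21 transcripts, 74.6% of all stretches of 75 bases in Tgtp1 also occur in Tgtp2, and 81.4% of those in Tgtp2 occur in Tgtp1, so how RSEM divided reads between the copies is uncertain. The exons of Tgtp1 also overlap Gm12185 on the same strand. Summed, the pair read 307, 29.9, 53.4 and 588 CPM in high fat females against 26.2, 28.3, 24.96 and 11.6 CPM, and 26.0, 26.8, 26.8 and 26.0 CPM in high fat males against 12.8, 15.8, 14.99 and 12.1 CPM. The summed pair had a log2 fold change of 3.43 ± 0.74 in females and 0.92 ± 0.70 in males (edgeR adjusted p = 0.430 in males). Tgtp1 took 85.7% and 90.2% of the pair's counts in female high fat replicates 1 and 4 and between 51.6% and 76.0% in the other 14 libraries.

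Iigp1 (ENSMUSG00000054072.13), the abundant effector, read 1041, 812, 826 and 1665 CPM in high fat females and 503, 629.8, 578 and 610.4 CPM on the normal diet. In males it read 695, 620.0, 616 and 751 CPM on the high fat diet and 468, 478, 512 and 512 CPM on the normal diet. The groups overlapped in neither sex. Its log2 fold change, 0.90 ± 0.18 in females and 0.45 ± 0.18 in males (edgeR adjusted p = 0.111 in males), was the smallest of the 10 in females and the second smallest in males. No stretch of 75 bases in its transcripts occurs in another annotated gene.

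Among the regulators, Irgm1 (ENSMUSG00000046879.8) rose with diet in males and was the one of the 10 genes called there. It read 84.5, 80.1, 81.7 and 94.6 CPM in high fat males and 47.0, 47.2, 58.3 and 52.1 CPM on the normal diet, a log2 fold change of 0.74 ± 0.22 (edgeR adjusted p = 0.0400). Females read 171, 81.1, 105 and 226 CPM against 57.8, 58.1, 56.2 and 49.6 CPM, a log2 fold change of 1.40 ± 0.22. Irgm1 is also the gene of the 10 with the least difference between the sexes on the normal diet, at 0.12 ± 0.22 (edgeR adjusted p = 0.764). The male call was lost on leaving out any 1 of the 8 male libraries, with edgeR adjusted p from 0.0595 to 0.105, and with no filter on low counts, at 0.110.

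Irgm2 (ENSMUSG00000069874.8) read 239, 111, 145 and 398 CPM in high fat females against 57.7, 73.5, 57.8 and 51.7 CPM, and 67.5, 72.7, 71.9 and 79.9 CPM in males against 39.7, 36.8, 51.5 and 44.1 CPM. Igtp (ENSMUSG00000078853.9), its neighbour, read 255, 74.4, 107 and 368 CPM against 50.1, 59.0, 43.5 and 37.7 CPM in females and 32.3, 40.2, 40.1 and 34.9 CPM against 23.5, 20.8, 29.7 and 27.0 CPM in males. Neither gene's diet groups overlapped in either sex. Log2 fold changes with diet were 1.89 ± 0.29 for Irgm2 and 2.08 ± 0.39 for Igtp in females, and 0.76 ± 0.29 and 0.55 ± 0.38 in males (edgeR adjusted p = 0.0990 and 0.381 in males). Exons of Irgm2 and Igtp overlap on the same strand in the annotation used here, and 7.80% of the 75-base stretches of Igtp occur in Irgm2, so part of their reads could be exchanged.

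Mouse GBP genes lie in a pair of clusters, Gbp2, Gbp3 and Gbp7 in one and Gbp10 in the other. Gbp10 (ENSMUSG00000105096.2) had the widest range of the 4. It read 145, 46.9, 78.4 and 254 CPM in high fat females against 15.02, 20.4, 17.6 and 7.31 CPM on the normal diet, and 11.6, 30.8, 28.3 and 26.9 CPM in males against 9.01, 4.09, 9.55 and 7.49 CPM. Male high fat replicate 1 lay just above the normal diet range, and the other 3 males on that diet lay between 26.9 and 30.8 CPM. Log2 fold changes were 3.12 ± 0.53 in females and 1.70 ± 0.52 in males (edgeR adjusted p = 0.0527 in males, and 0.0338 without male high fat replicate 1). Of the 75-base stretches of Gbp10, 67.1% occur in Gm43302, an annotated gene whose exons overlap both Gbp6 and Gbp10 on the same strand, so its level is uncertain. Gbp6 and Gbp10 summed gave 2.85 ± 0.44 in females and 1.48 ± 0.43 in males, where the edgeR adjusted p was 0.0404. The sum left out Gm43302, which also holds 61.7% of the 75-base stretches of Gbp6, so it stays uncertain too.

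Gbp2 (ENSMUSG00000028270.13), one of the GBPs best known from parasite vacuoles, read 58.8, 14.98, 25.2 and 88.8 CPM in high fat females against 13.1, 15.8, 11.6 and 7.47 CPM, and 8.25, 12.8, 13.5 and 7.26 CPM in males against 4.32, 6.34, 5.57 and 4.25 CPM. Gbp3 (ENSMUSG00000028268.15) read 83.2, 33.7, 46.8 and 146 CPM against 25.2, 38.2, 23.4 and 15.1 CPM in females, and 18.8, 15.6, 16.5 and 18.7 CPM against 7.00, 8.93, 6.22 and 8.77 CPM in males. For both genes female high fat replicate 2 fell inside the normal diet range, while the male groups did not overlap. Gbp7 (ENSMUSG00000040253.16) read 79.5, 49.3, 69.4 and 161 CPM against 29.9, 38.4, 30.9 and 30.4 CPM in females and 24.9, 33.5, 31.3 and 31.6 CPM against 15.3, 16.8, 18.5 and 18.1 CPM in males, with no overlap in either sex. Of the 75-base stretches of Gbp7, 10.0% occur in the overlapping Gm43802, and Gbp2 overlaps Mir6381 on the other strand. Log2 fold changes in females were 1.97 ± 0.46 for Gbp2, 1.61 ± 0.38 for Gbp3 and 1.47 ± 0.26 for Gbp7. In males they were 1.03 ± 0.47, 1.16 ± 0.39 and 0.82 ± 0.26, with edgeR adjusted p of 0.177, 0.0744 and 0.0528.

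**Figure D3:**
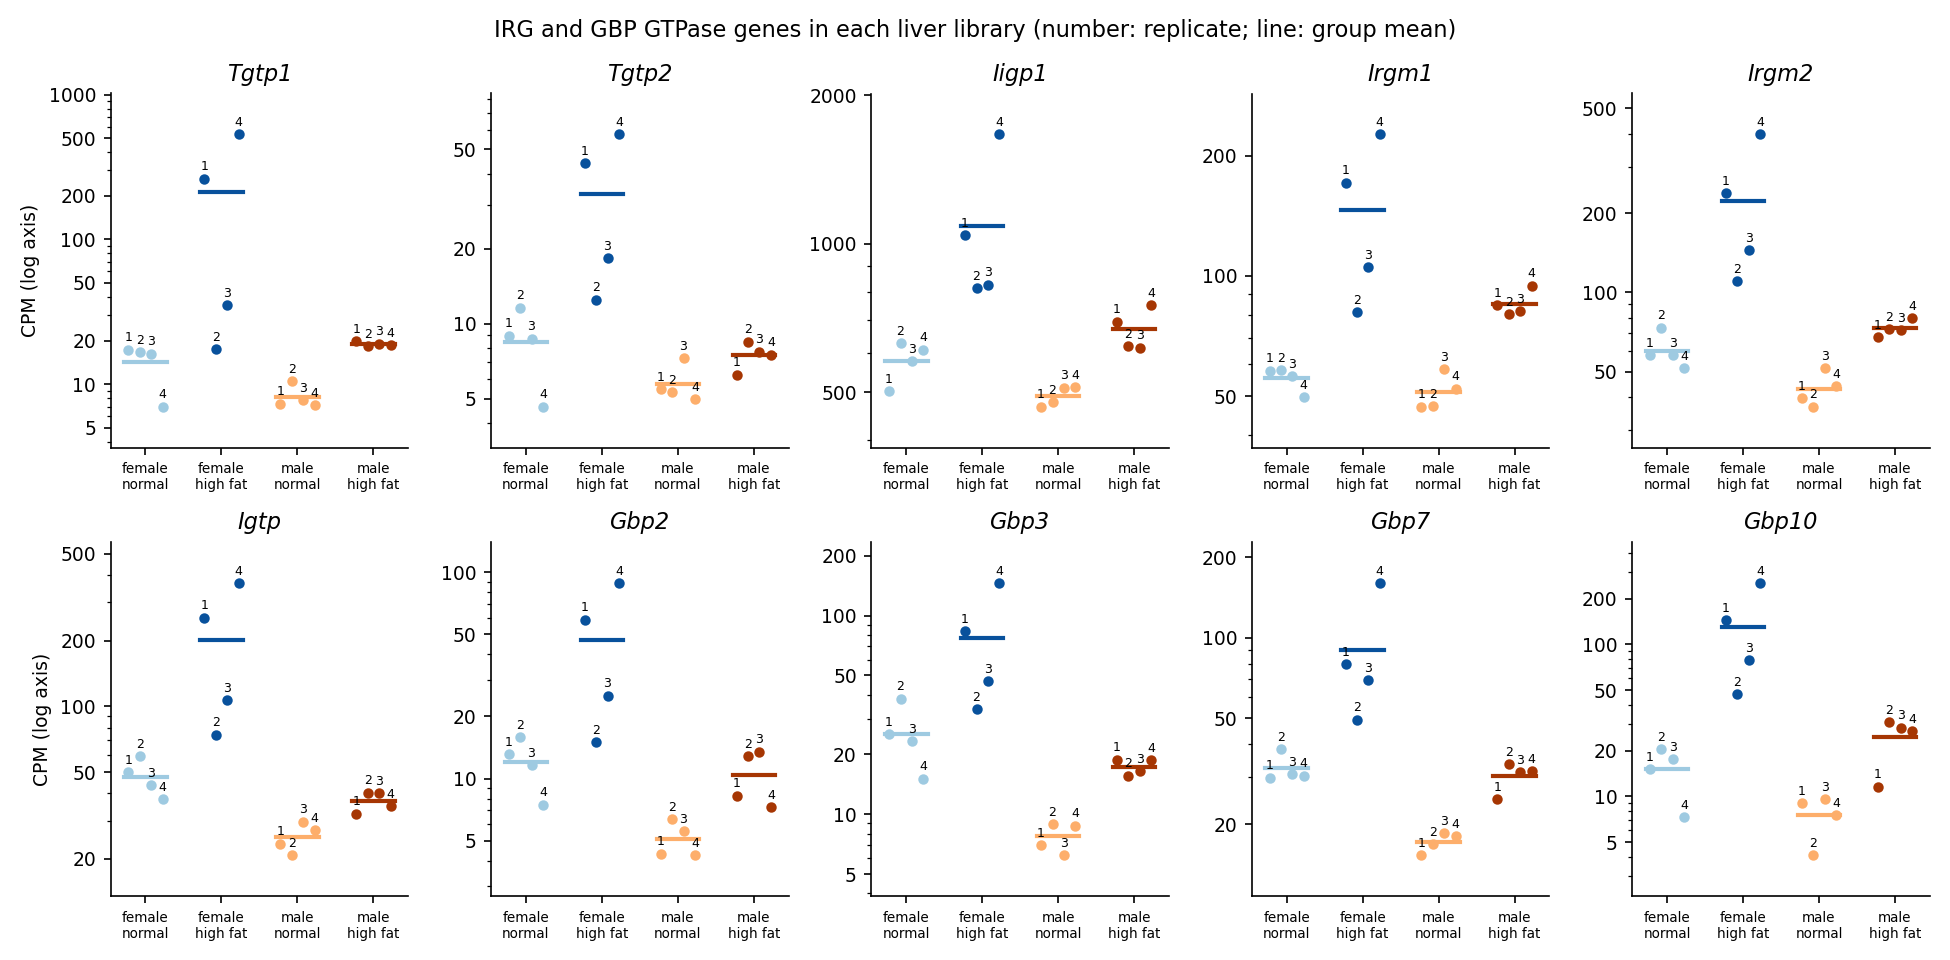
CPM of each of the 10 genes in each library (log axis), with the replicate number beside each point and a line at the group mean. In all 10 panels female high fat replicate 4 is the highest and replicate 1 the second highest of 16 libraries, and male high fat libraries lie above all male normal diet libraries in every panel but Tgtp2.

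The 4 female high fat libraries kept 1 order, replicate 4 above 1 above 3 above 2, in 10 of 10 genes. All 4 lay above all 4 normal diet females in 8 of 10 genes, with Gbp2 and Gbp3 as the exceptions, where 8.71% of all tested genes did so. In the model across all genes, 10 of 10 were called higher in females, against 5.74% of all tested genes called higher and 5.76% called lower. Since these libraries chose the genes, nothing is read from those counts. With replicates 1 and 4 of that group left out, an alternative added after their values were seen, 6 of 10 were called (Irgm1, Irgm2, Igtp, Iigp1, Gbp7 and Gbp10) against 1.46% of all tested genes called higher, again as a description. The median log2 fold change of the 10 in females was 1.93 with all libraries and 0.87 without these 2 libraries (0.50 for Iigp1 to 2.06 for Gbp10), and their SEs fell from between 0.18 and 0.85 to between 0.12 and 0.44. With only the 8 female libraries fitted, 6 of 10 were called, against 5.38%.

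Males share no library with the comparison that chose the genes. All 10 log2 fold changes with diet were positive in males, with a median of 0.79 beside 0.01 for all tested genes. The 4 high fat males lay above the 4 normal diet males in 9 of 10 genes, against 9.32% of all tested genes. Only Irgm1 of the 10 was called, against 6.03% of tested genes called higher and 5.36% called lower, and 7 of 10 had an unadjusted p under 0.05, against 14.3% of tested genes that were higher at that p. This model shared 1 estimate of spread per gene over all 4 groups, female high fat libraries included. With only the 8 male libraries fitted, 9 of 10 were called higher (all but Tgtp2), against 5.69% of 13908 tested genes, with log2 fold changes of 0.39 to 1.71 and SEs of 0.10 to 0.36 in place of 0.18 to 0.80. Without female high fat replicates 1 and 4, 9 of 10 were again called in males, against 7.19%. Male high fat replicates 2 and 3 count as 2 libraries in each of these fits, though they lay very close to each other. With them averaged in the fit of all 4 groups, no gene of the 10 was called, against 4.39% of tested genes called higher. The fit of males alone was not run with them averaged.

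The difference between the female and the male diet change was positive for all 10 genes, from 0.44 ± 0.54 for Gbp3 to 2.68 ± 1.11 for Tgtp1, but was called for 0 of 10 by edgeR's quasi-likelihood test and 0 of 10 by DESeq2, against 0.677% and 2.28% of all tested genes. At an unadjusted p under 0.05 by edgeR, 5 of 10 passed (Igtp, Irgm1, Irgm2, Tgtp1 and Tgtp2), against 13% of tested genes. This comparison holds the female libraries that chose the genes. Without female high fat replicates 1 and 4, the median difference was 0.05, with 7 of 10 positive and 0 of 10 under an unadjusted p of 0.05. Tgtp1, Gbp2 and Gbp3 then stood at -0.32, -0.28 and -0.50. Replicates 4 and 1 were the highest libraries in 10 of 10 genes, so the difference had to shrink without them. Nothing is read from that fall about whether the sexes respond alike.

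**Figure D4:**
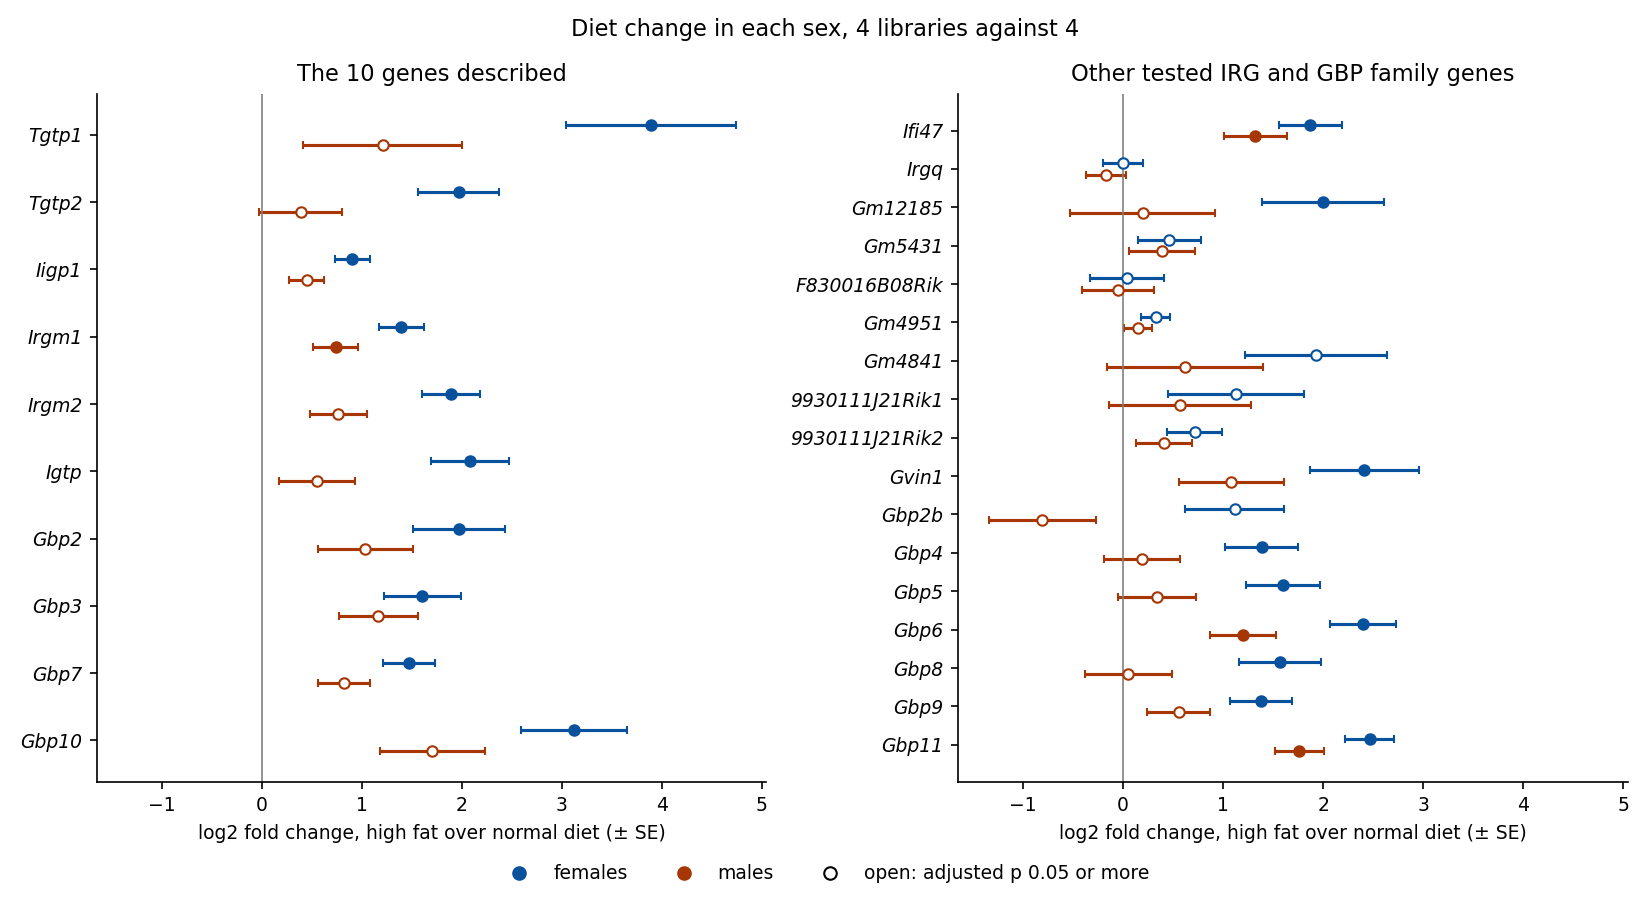
Log2 fold change of the high fat over the normal diet (x axis, ± SE) in females (blue) and males (brown), for the 10 genes on the left and 17 other tested genes of the families on the right. Filled points have an edgeR adjusted p under 0.05; the female points of the left panel are description only. Every point of the left panel is above 0, and female points lie right of the male points.

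Females had higher levels than normal diet males in all 10 point estimates, a comparison that shares the normal diet females with the one that chose the genes. Gbp3 had the largest difference, with 25.5 ± 9.55 CPM (SD, n = 4) for females against 7.73 ± 1.33 CPM for males, a log2 difference of 1.71 ± 0.40 (edgeR adjusted p = 0.0110). Gbp7 was the second one called, at 32.4 ± 4.00 CPM and 17.2 ± 1.44 CPM (log2 difference 0.91 ± 0.26, edgeR adjusted p = 0.0260). These 2 of 10 stand against 7.03% of tested genes called higher in females. The Gbp7 call was lost without female normal diet replicate 2 or without any 1 of the 4 normal diet males. With only the 8 normal diet libraries fitted, 5 of 10 were called, against 8.85%. All 4 normal diet females lay above all 4 normal diet males in 5 of 10 genes (Irgm2, Igtp, Gbp2, Gbp3 and Gbp7), against 9.86% of tested genes. The comparison of the sexes on the high fat diet holds the female libraries that chose the genes. There 10 of 10 were called higher in females, against 8.84% of tested genes, and the 4 libraries of each sex were separate in 8 of 10, against 10.3%. Tgtp1 had the largest log2 difference there, 3.48 ± 0.83, and Iigp1 the smallest, 0.70 ± 0.18. Without female high fat replicates 1 and 4, 5 of 10 were called (Tgtp2, Irgm2, Igtp, Gbp3 and Gbp7) against 3.39%, and the median log2 difference was 0.97 in place of 2.15. Of 11 tested T and NK cell markers, 5 were higher and 1 lower in females on each of the diets, and 5 of 8 Kupffer cell and macrophage markers were higher in females on the high fat diet (edgeR adjusted p under 0.05). Their part in the difference between the sexes was not tested.

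The 10 genes moved together from library to library. Over the 45 pairs of the 10, the correlation of log2 CPM across 16 libraries ran from 0.83 to 0.98, with a median of 0.94. Without female high fat replicates 1 and 4, which lie farthest from the median, the 45 values ran from 0.57 to 0.96, with a median of 0.83. After each group's mean was taken out, over all 16 libraries with replicates 1 and 4 included, they ran from 0.56 to 0.97, with a median of 0.85. These are descriptions, since the libraries fall into groups and the pairs share them.

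Other genes of the families were measured with the same counts. Of 19 more IRG and GBP genes found in the files, 17 were tested and 9 rose in high fat females (edgeR adjusted p under 0.05), 3 rose in males and 0 fell in either, with medians of 1.39 and 0.39. Among all tested genes, 5.74% were called higher in females and 6.03% in males. Gbp11, a GBP gene of the cluster of Gbp10, rose in both sexes. It read 20.3, 17.0, 16.01 and 23.0 CPM in high fat females against 3.82, 3.46, 3.44 and 3.12 CPM, and 14.9, 7.90, 8.28 and 15.01 CPM in males against 3.71, 3.77, 4.31 and 1.87 CPM. Its 4 female high fat libraries were close together, unlike those of the 10 genes. Log2 fold changes were 2.46 ± 0.25 in females (edgeR adjusted p = 1.58e-05) and 1.76 ± 0.25 in males (edgeR adjusted p = 0.000274).

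Gbp6 and Ifi47 were the others called in both sexes. Of the 75-base stretches of Gbp6, 67.3% occur in other genes, mostly Gm43302, so its level is uncertain. Gbp6 read 72.9, 28.02, 39.0 and 101 CPM in high fat females against 12.4, 13.2, 12.5 and 7.64 CPM, a log2 fold change of 2.40 ± 0.33 (edgeR adjusted p = 0.000453), with 1.20 ± 0.33 in males (edgeR adjusted p = 0.0298). Ifi47, an IRG effector also called IRG-47, read 84.4, 30.8, 34.0 and 68.6 CPM in females against 14.2, 17.6, 16.7 and 11.2 CPM, and 52.2, 24.3, 28.1 and 42.9 CPM in males against 13.3, 15.8, 16.3 and 13.6 CPM. Its log2 fold changes were 1.87 ± 0.32 in females and 1.32 ± 0.31 in males (edgeR adjusted p = 0.00223 and 0.0150). Called in females and not in males were Gvin1 (log2 fold change 2.41), a very large interferon-inducible GTPase, Gm12185 (2.00), Gbp5 (1.60), Gbp8 (1.57), Gbp4 (1.39) and Gbp9 (1.38), whose male values ran from 0.05 for Gbp8 to 1.08 for Gvin1. In females none of these 6 was called without high fat replicates 1 and 4, with values from 0.33 for Gbp8 to 1.22 for Gvin1 (edgeR adjusted p = 0.0919 for Gbp9 to 0.641 for Gm12185). The difference between the sexes in the diet change was called for 0 of 17 by edgeR and 0 of 17 by DESeq2. At an unadjusted p under 0.05 by edgeR, 5 of 17 passed, against 13% of all tested genes.

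Not called in either sex were Gbp2b (1.11 in females and -0.81 in males), Gm4841 (1.93 and 0.62), 9930111J21Rik1 (1.13 and 0.57), 9930111J21Rik2 (0.72 and 0.41), Gm5431 (0.46 and 0.39), Gm4951 (0.33 and 0.15), F830016B08Rik (0.04 and -0.06) and Irgq (-0.00 and -0.18), all as log2 fold changes with diet. Gm12250 and Irgc1 fell below the filter. All 4 high fat females lay above all 4 normal diet females in 6 of the 17 tested family genes, against 8.71% of all tested genes. High fat males lay above normal diet males in 3 of 17, against 9.32%. Replicates 1 and 4 were the highest pair among high fat females in 11 of 17. With these libraries left out, 3 of the 17 rose in females and 3 in males, Gbp6, Gbp11 and Ifi47 in both.

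Of the ligand and its pathway, Ifng itself stayed below the filter, with at most 13 counts in a library. It was listed at 0.121, 0.0992, 0 and 0.510 CPM in high fat females, at 0.0307 to 0.146 CPM in normal diet females, at 0 to 0.133 CPM in high fat males and at 0 in all 4 normal diet males. At these counts no difference was detectable. The receptor genes Ifngr1 and Ifngr2 and the kinase genes Jak1 and Jak2 were not called, with female log2 fold changes of 0.21, 0.12, 0.10 and 0.09.

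The transcription factors downstream did move. Of 10 tested genes of interferon gamma signalling, 4 rose in females, Irf1, Irf9 and Irf8 among them, against 5.74% of all tested genes. In males 0 rose by edgeR, against 6.03%, while 2 of 10 had an unadjusted p under 0.05 and DESeq2 called 1. Irf8 was no longer called in females without high fat replicates 1 and 4, at 0.35 (edgeR adjusted p = 0.511), while Irf1 (0.91) and Irf9 (0.61) were.

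For the difference between the sexes in the diet change, 4 of 10 tested genes of this pathway had an unadjusted p under 0.05 by edgeR. Of all tested genes 13% did so. The 1 gene of this pathway called for that difference was Irf1. It read 57.1, 28.1, 38.1 and 64.1 CPM in high fat females against 19.5, 19.0, 17.9 and 14.1 CPM, a log2 fold change of 1.41 ± 0.19 (edgeR adjusted p = 0.000225). In males it read 16.3, 16.6, 15.9 and 14.4 CPM on the high fat diet against 15.1, 18.6, 17.4 and 15.5 CPM, at -0.07 ± 0.19 (edgeR adjusted p = 0.845). The difference of the changes was 1.49 ± 0.27 (edgeR adjusted p = 0.0143), and 0.99 (edgeR adjusted p = 0.0308) without female high fat replicates 1 and 4. On log2(TPM + 1) without a filter on low values its adjusted p was 0.0826 (limma). Irf9, which encodes the DNA-binding part of the type I complex, rose by 0.78 ± 0.10 in females (edgeR adjusted p = 0.000143) and read 0.32 ± 0.10 in males (edgeR adjusted p = 0.0505).

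Of 14 tested targets of interferon gamma outside the families, 9 rose in females and 1 in males, with medians of 1.26 and 0.42. The shares of all tested genes called higher were 5.74% and 6.03%, so the male count is near that share. The difference between the sexes in the diet change was called for 0 of 14 by edgeR and 0 of 14 by DESeq2. At an unadjusted p under 0.05 by edgeR, 5 of 14 passed, against 13% of all tested genes. Cd274, which encodes the checkpoint ligand PD-L1, rose in both sexes, from 2.00 ± 0.28 CPM to 12.4 ± 7.44 CPM in females (log2 fold change 2.63 ± 0.30, edgeR adjusted p = 5.81e-05) and by 1.33 ± 0.31 in males (edgeR adjusted p = 0.0112). Cxcl10, a chemokine that draws T cells, read 23.2, 6.62, 8.79 and 20.95 CPM in high fat females against 3.19, 3.65, 3.55 and 1.44 CPM (log2 fold change 2.34, edgeR adjusted p = 0.00223). Its relative Cxcl9 was not called, at 1.53 (edgeR adjusted p = 0.0566). Ciita, which switches on MHC class II genes, rose by 1.94 in females (edgeR adjusted p = 0.0117), and Tap1, a peptide transporter for MHC class I, by 1.89 (edgeR adjusted p = 0.00130). Leaving out female high fat replicates 1 and 4, 3 of 14 rose in females and 5 of 14 in males. The female values were then 1.84 for Cd274, 1.39 for Cxcl10 and 1.00 for Tap1, all called, and 0.90 for Ciita, which was not (edgeR adjusted p = 0.289). With only the 2 groups compared in the fit, 5 rose in females and 4 in males.

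Genes induced by type I interferon rose in both sexes. Of 22 tested, 17 rose in females and 14 in males, against 5.74% and 6.03% of all tested genes, with medians of 1.40 and 1.04. The difference between the sexes was called for 0 of 22 by edgeR, with 0 of 22 at an unadjusted p under 0.05, and 0 of 22 by DESeq2. Ifit1, which binds foreign RNA, read 53.3, 38.2, 41.1 and 69.2 CPM in high fat females against 12.6, 15.3, 16.9 and 10.0 CPM, and 18.7, 22.6, 22.3 and 26.2 CPM in males against 10.2, 7.56, 6.31 and 8.69 CPM. Its log2 fold changes were 1.88 ± 0.20 (edgeR adjusted p = 2.70e-05) and 1.46 ± 0.20 (edgeR adjusted p = 0.000239). Isg15, a ubiquitin-like protein, rose by 1.63 and 1.39, Oasl1 by 1.54 and 1.25, Cmpk2 by 1.32 and 1.29 and Rsad2, an antiviral enzyme, by 1.55 and 1.11. When female high fat replicates 1 and 4 were left out, 9 of 22 rose in females and 14 of 22 in males, and Isg15 was no longer called in females, at 0.97 (edgeR adjusted p = 0.181).

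**Figure D5:**
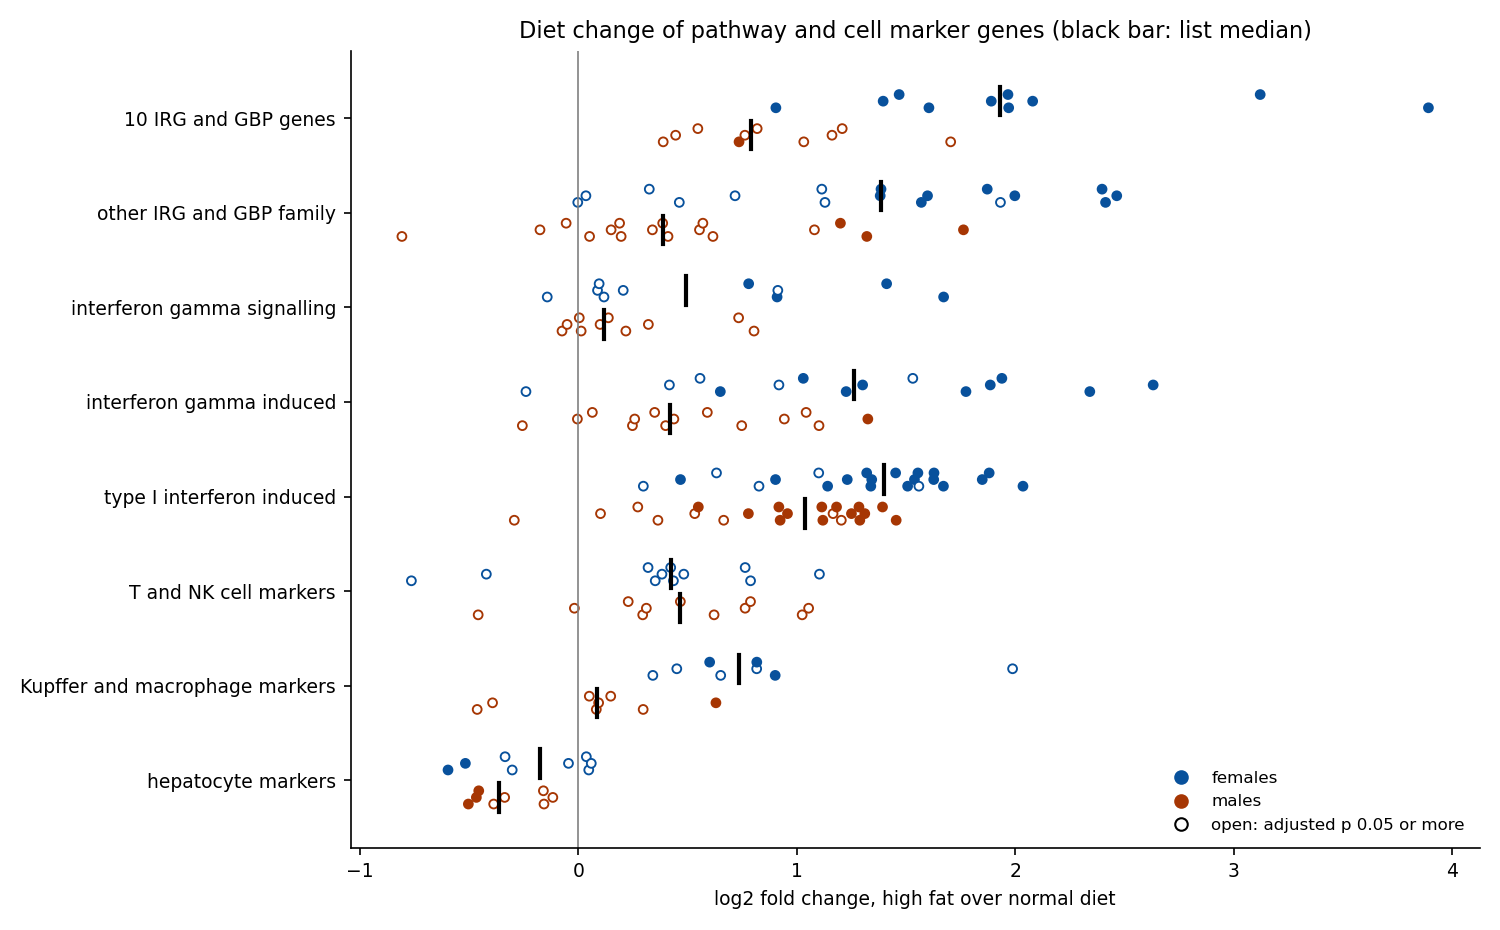
Log2 fold change of the high fat over the normal diet (x axis) in females (blue) and males (brown) for each tested gene of the 10 GTPases, the other family genes, the interferon lists and 3 cell marker lists (y axis), with a black bar at the list median and open points where the edgeR adjusted p is 0.05 or more. Medians of the 10 GTPases are 1.93 in females and 0.79 in males, beside 1.40 and 1.04 for type I interferon induced genes.

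Proteins of the ubiquitin and autophagy machinery help to load IRG and GBP proteins on vacuoles. Of that list, Trim21 (1.02 ± 0.14, edgeR adjusted p = 0.000174) and Sqstm1 (0.38) rose in females, and Gabarapl2 (-0.43) and Map1lc3b (-0.53) fell. In males Trim21 rose (0.59 ± 0.14, edgeR adjusted p = 0.0111). With female high fat replicates 1 and 4 left out, Trim21 (0.77) was still called in females, while Sqstm1 (0.27), Gabarapl2 (-0.45) and Map1lc3b (-0.53) were not, with edgeR adjusted p of 0.249, 0.0741 and 0.0604.

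Markers of cells that carry or respond to interferon were summed per library. The 16 T and NK cell markers summed to 14.3, 7.87, 7.52 and 15.3 CPM in high fat females, 6.26 to 10.1 CPM in normal diet females, 4.72 to 7.39 CPM in high fat males and 2.84 to 4.71 CPM in normal diet males. Replicates 1 and 4, the libraries highest in the 10 GTPases, were also highest there, although 0 of 11 tested T and NK markers were called by diet in either sex by edgeR or by DESeq2, with 1 in females and 2 in males at an unadjusted p under 0.05. The 8 Kupffer cell and macrophage markers summed to 509.7, 529.6, 448.5 and 652 CPM in high fat females, above the 270.5 to 391 CPM of the normal diet, with Cd68 (0.90), Cd5l (0.82) and Csf1r (0.60) called by edgeR. At an unadjusted p under 0.05 these were 7 of 8, and DESeq2 called 6 of 8. The values of Cd68, Cd5l and Csf1r without female high fat replicates 1 and 4 were 0.62, 0.54 and 0.63 and none was called (edgeR adjusted p = 0.0543, 0.362 and 0.0543). In males these sums overlapped, at 224 to 447 CPM on the high fat diet and 252 to 393 CPM on the normal diet, with Cd68 (0.63) called. The part of these cells in the rise of the GTPases was not tested.

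B cell markers summed to 4.15 to 8.44 CPM in high fat females and 1.82 to 3.67 CPM on the normal diet, and dendritic cell markers to 3.23 to 6.26 CPM and 2.58 to 3.92 CPM, with 0 of 4 and 0 of 5 called by edgeR. At an unadjusted p under 0.05 these were 1 of 4 and 0 of 5, and DESeq2 called 1 of 4 and 0 of 5. Of 3 tested neutrophil markers 2 rose in females, from sums of 0.760 to 1.53 CPM to sums of 2.28 to 4.59 CPM, and 0 of 3 were called without female high fat replicates 1 and 4, with 2 of 3 at an unadjusted p under 0.05. Sinusoidal endothelial markers summed to 120 to 161 CPM and 121 to 141 CPM, with 0 of 5 called by edgeR or DESeq2 and 1 of 5 at an unadjusted p under 0.05. Hepatocyte markers, of which Alb, Trf and Apoa1 were the highest, summed to less on the high fat diet in both sexes, 98840 to 116700 CPM against 121800 to 136800 CPM in females and 72580 to 90250 CPM against 100600 to 114600 CPM in males, with 2 of 8 and 3 of 8 called lower. In high fat females the mean of Alb was 71840 CPM against 90610 CPM on the normal diet. Means of Trf (16770 against 16220 CPM) and Apoa1 (5597 against 5370 CPM) were not lower there. The log2 fold change was positive for 3 of 8 in females and 0 of 8 in males. Of the red blood cell markers 0 of 5 were called by edgeR in either sex, with 1 of 5 in each sex at an unadjusted p under 0.05 and 1 of 5 called by DESeq2 in males. In males 1 of 2 adipocyte and 1 of 2 pancreatic acinar markers were called higher, and in females 0 of 2 of each by edgeR, by DESeq2 or at an unadjusted p under 0.05. These markers were uneven within groups. The acinar marker Pnlip read 8.18 and 3.54 CPM in male high fat replicates 2 and 3, 1.57 CPM in female normal diet replicate 4 and 0 elsewhere. Cpa1 and Cel were above 0 in the same libraries only, while Cela1 was present in all. The adipocyte marker Cfd read 0.372, 9.64, 10.2 and 3.76 CPM in high fat males. No marker on any of these lists was at 0 in all 16 libraries, and the part of these shifts in the results was not tested.

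Outside the lists, the genes whose level across 16 libraries was most like the mean log2 CPM of the 10 GTPases were taken from 10545 genes. The first 8 by Pearson correlation were H2-Q4 (0.961), Sp110 (0.958), Gm43302 (0.958), Ifit3b (0.957), H2-Eb1 (0.947), Samhd1 (0.947), Cd74 (0.944) and Ly9 (0.942). H2-Eb1 and Cd74 encode MHC class II components, H2-Q4 an MHC class I molecule, and Gm43302 shares exons with Gbp10. Over the 14 libraries without female high fat replicates 1 and 4 these 8 correlations were 0.799 to 0.944. With group means taken out, the first 8 were H2-DMb1 (0.945), H2-Q4 (0.939), AW112010 (0.925), H2-Eb1 (0.920), Trafd1 (0.911), H2-K1 (0.900), Cd74 (0.893) and H2-T22 (0.886). Over the 14 libraries, with group means left in, these 8 stood at 0.625, 0.866, 0.797, 0.807, 0.255, 0.670, 0.799 and 0.742. The correlations are descriptions over libraries that share groups.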

How the data were processed

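Estimated counts per gene and TPM values were deposited for each of 16 libraries of poly(A) RNA, and the submitters' processing notes name STAR, RSEM and the mouse build GRCm39. The authors' estimated counts, of which 4.89% were not whole numbers, were rounded. They were then fitted with edgeR 4.0.16 in R 4.3.3 and with DESeq2 1.42.0. The authors' TPM values, which RSEM divides by transcript length, were used for levels between genes and, as log2(TPM + 1), with limma 3.58.1. Strand handling in counting is not given in the sources used here. Symbols were given to 51487 of 78317 genes, holding 98.97% of counts. Columns of other samples numbered 0.

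Genes passing edgeR's filter over the 4 groups (14781, with 99.94% of counts) were scaled by TMM and tested with the robust quasi-likelihood test, 1 mean per group over all 16 libraries, with Benjamini-Hochberg adjustment over all tested genes and a threshold of 0.05. CPM used the same factors. SE is the log2 fold change over the root of F. The steps were tested on simulated data. Library totals ran from 22228115 to 41420589 counts, so low genes such as Ifng were limited by counting. Promoter letters came from RefSeq tables of build GRCm38.p6 and transcript overlaps from GENCODE M21, both older than the build of the counts.

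The 10 genes, the other lists and the tests were chosen with earlier results of these data known. Named genes are the 10, the other tested family genes, Ifng, Irf1, Cxcl9, Cxcl10, Ciita, Isg15 and Ifit1, the 3 smallest p per pathway list and sex, the 3 highest markers per cell type, and the 8 genes most like the 10 by each measure. Genes beyond the rule (receptors, kinases, Sqstm1, Csf1r, Cd68 and Irf8) were named after their values were seen. Alternatives were another normalisation, DESeq2, no filter, TPM with pseudocounts of 1 and 0.1, only the groups compared, a replicate block, copies summed, 2 near libraries averaged and each library left out. Leaving out female high fat replicates 1 and 4, and TPM for the family sums, were added after seeing the data. Some genes that this rule names are not reported here.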

Additional observations from a re-analysis of the deposited data

Results flagged for a closer look

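In normal diet females, Tgtp1 in replicate 4 read 6.99 CPM while the other 3 libraries read 16.3 to 17.3 CPM, and this gap took 0.897 of the group's range, above Dixon's 95% critical value for 4 samples. In the same group Gbp7 in replicate 2 read 38.4 CPM while the other 3 read 29.9 to 30.9 CPM, a gap of 0.882 of the range. These were 2 of 52 groups of 4 examined, and chance gives about 1 in 20.

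The change with the high fat diet differed between the sexes for Irf1, the transcription factor that binds the ISRE, by 1.49 on the log2 scale (females minus males, edgeR adjusted p = 0.0143). Its mean was 46.8 CPM against 17.6 CPM in females and 15.8 CPM against 16.6 CPM in males, high fat against normal diet.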

How the results depend on the processing

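Leaving out replicates 1 and 4 of the high fat females moved more counts than the other settings. With both left out, calls among the 10 GTPases were 6 for diet in females, 9 for diet in males, 5 between the sexes on the normal diet and 5 on the high fat diet, against 10, 1, 2 and 10. Of all tested genes, 1.46%, 7.19%, 8.13% and 3.39% were then called higher, against 5.74%, 6.03%, 7.03% and 8.84%. Counts then were 3 in females for the other family genes, 2 in males for interferon gamma signalling, 3 in females and 5 in males for interferon gamma induced genes, 9 in females for type I induced genes and 1 in females for the ubiquitin and autophagy list. With only the 2 groups compared, the 10 gave 6 calls in females, 9 in males and 5 between the sexes on the normal diet, against 5.38%, 5.69% and 8.85% of all tested genes called higher. Interferon gamma signalling then gave 2 in males, and interferon gamma induced genes 5 in females and 4 in males. DESeq2's Wald test gave 5 of the 10 in males, 1 of the signalling list and 4 of the induced list, with 7.58% of all tested genes called higher. No low-count filter gave 0 of the 10 in males and 1 between the sexes on the normal diet, with 2.29% and 3.02% of all tested genes called higher. On log2(TPM + 1), limma gave 1 of the 10 between the sexes on the normal diet, where 6.37% of all tested genes were called higher. In males it gave 1 of the signalling list and 0 of the induced list, against 6.08%. On log2(TPM + 0.1) the male counts were 4, 1 and 2 for these 3 lists, against 6.45% of all tested genes called higher. On log2(TPM + 1) with no filter, males gave 0 of the 10, 1 other family gene, 0 induced, 9 type I induced and 1 ubiquitin or autophagy gene, against 1.63% of all tested genes called higher. That setting also gave 1 of the 10 between the sexes on the normal diet (1.95% of all tested genes called higher), 2 ubiquitin or autophagy genes in females and 0 signalling genes for the difference of the diet changes. Copies summed gave 2 of the 10 in males, and male high fat replicates 2 and 3 averaged gave 0, with 6.03% and 4.39% of all tested genes called higher. Leaving out 1 library gave 0 to 1 of the 10 in males, 1 to 2 between the sexes on the normal diet, 0 to 1 signalling genes in males, 5 (without female high fat replicate 4) to 12 induced genes in females and 2 to 4 ubiquitin or autophagy genes in females. The share of all tested genes called higher then ran from 3.86% to 6.21% in males. Between the sexes on the normal diet it ran from 4.2% to 7.91%. The causes of these shifts beyond the samples or genes left out were not tested. No value that was called, with all libraries or under an alternative, changed sign between them. The difference of the diet changes was called for 0 of the 10 under each setting run, and changed sign for Tgtp1, Gbp2 and Gbp3 without both replicates 1 and 4 of the high fat females, and for Gbp3 (-0.06) without replicate 4.

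Same-numbered libraries of the 2 diets of a sex did not deviate together, with correlations of -0.17 to 0.07. Between the sexes all the values were positive but small, at 0.02 to 0.11 on the normal diet and 0.0038 to 0.14 on the high fat diet. These values do not settle whether the numbers pair the libraries. The fit with the replicate number as a block gave 10, 1, 0, 2 and 10 calls of the 10 for the female and the male diet change, their difference, and the sexes on the normal and high fat diet, 6 of the other family genes in females and 1 signalling gene in males. Of all tested genes it called 5.6% and 6.49% higher with diet and 8.13% and 9.98% higher in females. For the difference it called 0.683%. The ratio of summed CPM between diets for the 10 ran from 1.99 to 3.03 in females and from 1.421 to 1.502 in males on leaving out 1 library, and was 3.21 and 1.55 in TPM. The median of all genes lay 0.149 above 0 in females and 0.0505 above 0 in males on log2(TPM + 1). Depth limits Ifng and markers of rare cells.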
